A study of Mus musculus with 9 samples.

Results

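The ribosome biogenesis factors described here are nucleolar and ribosome assembly genes, taken from a list of 44 names. A gene entered when the array had a probe set annotated to it alone, and its brightest probe set stood for it. In all, 41 of the 44 met this rule, among 12393 genes measured. No probe set carried the name of Dkc1 or Nob1, and that of Mrto4 is shared with pseudogenes. RNA came from sorted bone marrow cells of C57BL/6 mice that were positive for c-Kit and Sca-1 and negative for lineage markers and IL7Ra (KSL cells), the fraction that holds haematopoietic stem cells and early progenitors. It was measured on 9 Affymetrix arrays, 3 biological replicates in each of 3 groups. RUNX1(41-214) cells carried a fragment of RUNX1, named for its residues, in a retroviral vector and were taken 4 months after transduction and transplantation. Runx1KO cells came from mice with floxed Runx1 alleles and the MxCre transgene (Runx1floxed/floxed MxCre+/-), 3 months after poly IC. Control cells came from mice with the same floxed alleles and no Cre (Runx1floxed/floxed MxCre-/-), also 3 months after poly IC. Mx-Cre is switched on by interferon in many tissues, so deletion is not limited to blood cells. The labels of the RUNX1(41-214) group name no floxed allele and no poly IC, and no transplanted cells with an empty vector were analysed here. Differences of that group from the others therefore cannot be told apart from those of transplantation, transduction and poly IC.

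Ribosomes are built in the nucleolus. RNA polymerase I, with the architectural factor Ubtf, transcribes the precursor of the large ribosomal RNAs. Box C/D and box H/ACA small nucleolar ribonucleoproteins (snoRNPs) then methylate it or convert uridine to pseudouridine, and the U3 snoRNP with the small subunit processome cuts out the small subunit RNA. Separate sets of GTPases, helicases and scaffold proteins assemble the 40S and the 60S particles, and the RIO kinases act on the 40S precursor in the cytoplasm. In blood, nucleophosmin is a gene of recurrent mutation in leukaemia, and loss of Runx1 in mouse progenitors has been described elsewhere to lower ribosome biogenesis. The comparisons below ask how the transcripts of these factors stand in KSL cells with the RUNX1 fragment and in those labelled Runx1KO.

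The promoters of 37 of the 41 genes were available from RefSeq (GRCm38.p6), as 45 windows of 250 bases before to 50 bases after a transcription start. Npm1, Fbl, Bop1 and Rrs1 were not matched. Riok2, Imp3, Polr1a and Gnl3 had an unadjusted limma p under 0.05 against control in either group, and Riok2 alone passed after adjustment. The windows shown belong to these genes and to Nop56 and Pes1, which carry the motifs searched. They read 5′ to 3′ along the gene's strand, and capitals mark CACGTG, the E-box bound by Myc, and TGTGGT or its reverse complement ACCACA, a core bound by Runx proteins.
Riok2 (chr17:17374082-17374381, + strand): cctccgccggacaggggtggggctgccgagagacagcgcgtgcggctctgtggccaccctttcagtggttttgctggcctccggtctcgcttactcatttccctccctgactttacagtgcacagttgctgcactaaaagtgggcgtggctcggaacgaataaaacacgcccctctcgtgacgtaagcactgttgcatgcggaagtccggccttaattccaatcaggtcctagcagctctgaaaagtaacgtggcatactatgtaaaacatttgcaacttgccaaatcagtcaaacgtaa
Imp3 (chr9:56937250-56937549, + strand): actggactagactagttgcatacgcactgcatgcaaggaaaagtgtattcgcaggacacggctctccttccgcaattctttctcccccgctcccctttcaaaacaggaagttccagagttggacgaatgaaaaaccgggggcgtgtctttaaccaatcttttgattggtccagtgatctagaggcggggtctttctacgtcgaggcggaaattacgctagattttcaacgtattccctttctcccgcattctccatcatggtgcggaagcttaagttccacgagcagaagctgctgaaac
Polr1a (chr6:71908803-71909102, + strand): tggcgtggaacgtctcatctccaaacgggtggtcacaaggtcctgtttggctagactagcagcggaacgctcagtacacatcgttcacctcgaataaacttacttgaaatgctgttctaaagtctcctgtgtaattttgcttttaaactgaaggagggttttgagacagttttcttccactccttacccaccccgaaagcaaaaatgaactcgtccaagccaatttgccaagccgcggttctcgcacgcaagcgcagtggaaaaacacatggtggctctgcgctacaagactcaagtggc
Gnl3 (chr14:31019082-31019381, - strand): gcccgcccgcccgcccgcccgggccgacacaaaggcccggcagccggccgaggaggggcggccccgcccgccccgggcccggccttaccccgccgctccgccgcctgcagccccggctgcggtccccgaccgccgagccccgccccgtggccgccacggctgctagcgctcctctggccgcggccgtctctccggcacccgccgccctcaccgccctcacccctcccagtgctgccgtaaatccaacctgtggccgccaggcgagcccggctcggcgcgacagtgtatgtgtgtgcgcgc
Nop56 (chr2:130274162-130274461, + strand): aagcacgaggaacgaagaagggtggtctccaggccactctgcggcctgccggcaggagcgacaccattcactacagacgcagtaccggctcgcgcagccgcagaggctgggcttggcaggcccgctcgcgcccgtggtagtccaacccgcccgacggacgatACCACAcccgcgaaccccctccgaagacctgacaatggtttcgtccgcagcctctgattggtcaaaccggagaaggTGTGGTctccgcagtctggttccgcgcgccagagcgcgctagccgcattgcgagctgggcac
Pes1 (chr11:3963725-3964024, + strand): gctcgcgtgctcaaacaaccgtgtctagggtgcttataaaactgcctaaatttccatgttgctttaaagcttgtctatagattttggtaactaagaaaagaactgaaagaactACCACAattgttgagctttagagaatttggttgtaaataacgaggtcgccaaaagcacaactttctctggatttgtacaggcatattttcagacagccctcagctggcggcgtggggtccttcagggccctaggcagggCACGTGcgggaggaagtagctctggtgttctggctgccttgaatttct
The windows of Riok2, Imp3, Polr1a and Gnl3 hold neither motif. Nop56 has ACCACA with its first base at -88 and TGTGGT at -12 from the start, and Pes1 has ACCACA at -137 and CACGTG at 3. On either strand, TGTGGT was in 5 of 45 windows (11.1%), against 16.8% of all 32851 windows and 13.2% of those of measured genes. CACGTG, which reads the same on both strands, was in 6 of 45 windows (13.3%), against 7.15% of all windows and 9.11% of those of measured genes. The E-box windows were those of Imp4, Nop2, Ltv1, Pes1, Tsr1 and Wdr43, and the Runx core windows those of Nop56, Mphosph10, Pes1, Heatr1 and Bysl. These motifs overlapped in no window. Among other letters searched on both strands, CCAAT was in 12 of 45 windows (26.7%, against 37.1% of those of measured genes) and GGCGGG in 26 of 45 (57.8%, against 54.3%). A match of letters is a description of the sequence and not evidence of binding.

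Median signals per array ran from 125 to 147, and correlations over all genes were 0.976 to 0.992 within groups. Levels are given as log2(signal + 16) after quantile normalization, and differences between groups as log2 fold changes on that scale. Gapdh control probe sets read both ends of that transcript, and the excess of the 3′ over the 5′ end, a sign of RNA integrity, was on the log2 scale 2.13 on Runx1KO replicate 3 and 1.85 on control replicate 2, and lay between 0.979 and 1.29 on the other 7 arrays. The same log2 ratio of the Actb control probe sets was 1.98 on Runx1KO replicate 3 and 0.99 on control replicate 2. On the other 7 arrays it lay between 0.438 and 0.883, so that Actb set control replicate 2 little apart. The 2 arrays of high Gapdh ratio also stood at the ends of the biogenesis factors' range. Control replicate 2 was the highest of the 9 arrays for 14 of 41 factors (34.1%, against 15.5% of all genes), and Runx1KO replicate 3 was the lowest for 12 of 41 (29.3%, against 13.2% of all genes). The main counts are also given without both of them, a choice made after seeing the data. Runx1 itself was at 10.82, 10.95 and 11.06 in RUNX1(41-214), at 11.20, 11.73 and 11.40 in Runx1KO and at 10.72, 9.88 and 10.58 in control cells. It stood at 1.05 ± 0.21 (SE) in Runx1KO and 0.55 ± 0.21 in RUNX1(41-214) against control, short of the threshold (limma adjusted p = 0.074 and 0.223). Of the 5 Runx1 probe sets, 3 were higher on every Runx1KO array than on every control array, and none had a lower mean. Those other 2 higher sets stood at 9.55, 9.35 and 9.77 in Runx1KO against 8.89, 7.05 and 7.99 in control cells, and at 7.93, 8.57 and 8.15 against 6.94, 7.20 and 7.42. Neither passed in Runx1KO (limma over all probe sets, 1.58 ± 0.37 and 1.03 ± 0.23, adjusted p = 0.165 and 0.152), and the dimmer of them rose in RUNX1(41-214) (1.07 ± 0.23, adjusted p = 0.0291). The last 2 sets were at 0.24 ± 0.58 and 0.15 ± 0.24 in Runx1KO. Whether any of them reads the deleted part is not known here, so no lower Runx1 signal checks the deletion, and every direction given for Runx1KO rests on the labels.

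**Figure D1:**
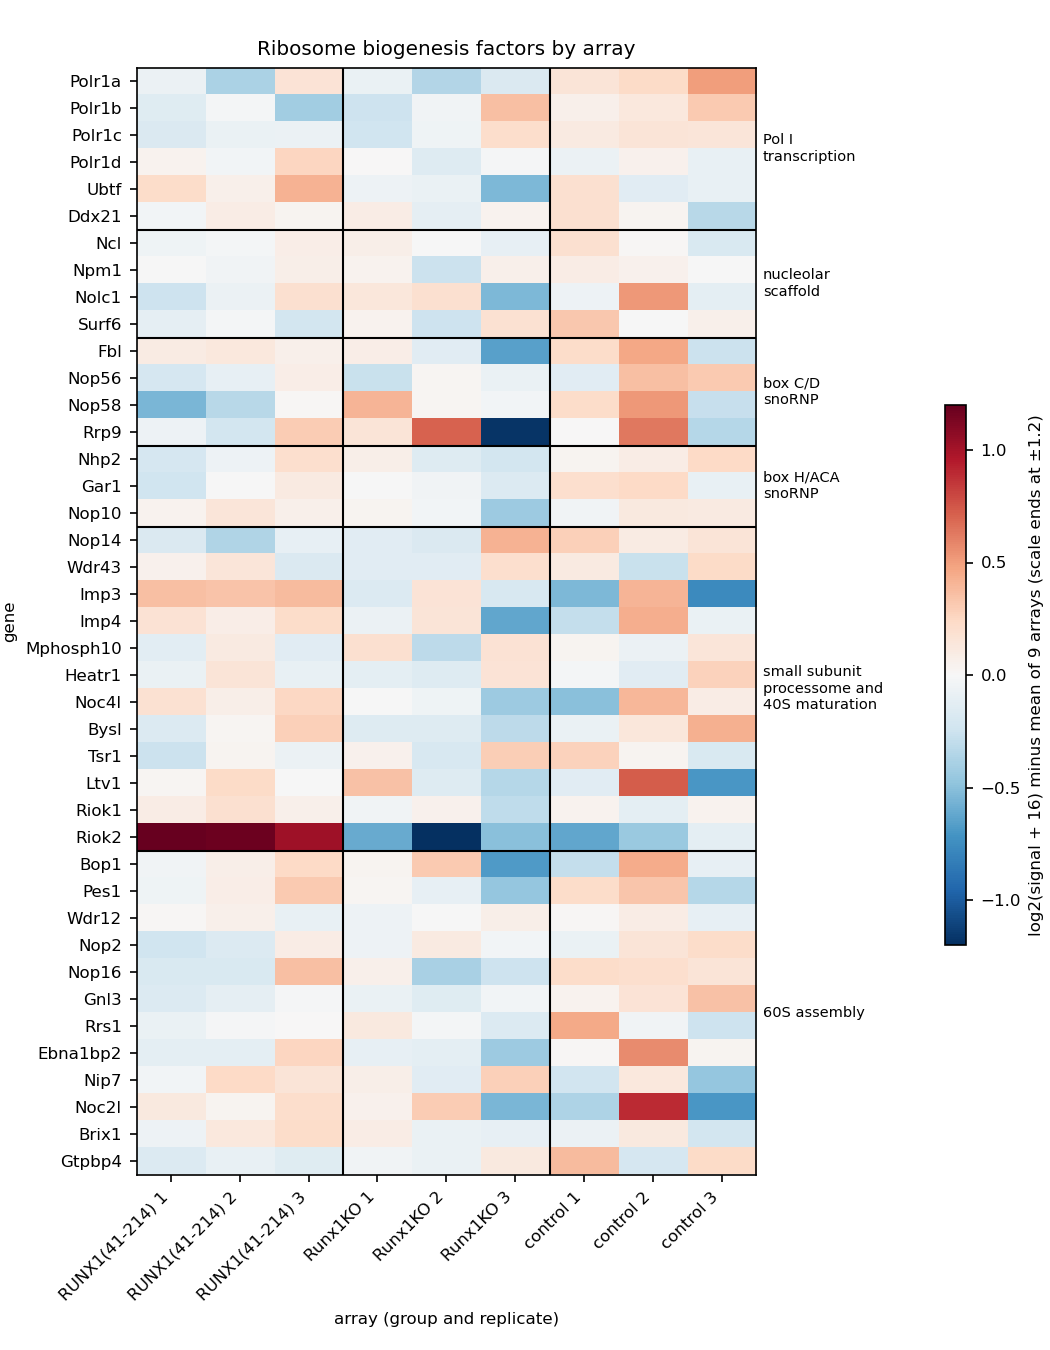
Levels of the 41 ribosome biogenesis factors on each array as the difference of log2(signal + 16) from the gene's mean over the 9 arrays, grouped by role, with RUNX1(41-214), Runx1KO and control arrays in columns. Riok2 is high on the 3 RUNX1(41-214) arrays, and control replicate 2 is high and Runx1KO replicate 3 low for many genes.

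On the arrays labelled Runx1KO most of these genes had slightly lower signals than in control, and none of the differences passed the test. Of the 41 factors, 35 had a mean below control in Runx1KO, 85.4% against 50.8% of all genes, and 6 lay above. The median log2 fold change was -0.14, against -0.004 over all genes and 0.002 over the 5370 genes at least as bright as the dimmest factor. In bulk samples like these, fewer cells of a type and less RNA per cell cannot be told apart. The count is a description, since a shift of this kind was known before the genes were listed.

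By limma with Benjamini-Hochberg adjustment over all genes, 0 of 41 factors were called in Runx1KO against control, where 0.347% of all genes were. At an unadjusted p under 0.05 there were 2, Polr1a and Gnl3, both lower (4.88%, against 7.22% of all genes at that level and 3.38% lower). In 5 of 41 (12.2%) the 3 Runx1KO arrays did not overlap the 3 control arrays, all 5 lower, against 10.5% of all genes and 5.2% lower. These were Polr1a, Gnl3, Nop16, Ebna1bp2 and Bysl. The 95% intervals of 40 of the 41 fold changes lay between -1 and 1, so that a change of 2-fold or more lay outside them, Rrp9 being the exception (-1.09 to 0.69). The count below control was 26 without control replicate 2, 28 without Runx1KO replicate 3, 26 without both and 37 without control replicate 3, and 0 were called in each case. The median was -0.06 without both, against -0.14 with all arrays, and 49.9% of all genes were then below control.

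In RUNX1(41-214) cells 1 of the 41 factors changed against control, Riok2, which was about 3 times as bright. Of the 41, 26 lay below control (63.4%, against 47.4% of all genes) and 15 above, with a median of -0.04 (0.02 over all genes). Against Runx1KO the same gene rose and no other passed. By limma, 1 of 41 (2.44%) was called in RUNX1(41-214) against control, where 4.28% of all genes were, 1.73% upward. Against Runx1KO 1 of 41 was called, where 1.36% of all genes were, 0.299% upward. Not overlapping were 7 of 41 (17.1%) against control, 2 higher and 5 lower, where 20.3% of all genes did not overlap (10% higher and 10.2% lower). Against Runx1KO there were again 7 of 41, 6 higher and 1 lower, where 18.8% of all genes did not overlap (9.68% higher and 9.13% lower). Without both arrays of high Gapdh ratio, 22 of 41 lay below control (median -0.02) and Imp3 passed as well. The F test among the 3 groups called Riok2 alone, 1 of 41, against 3.4% of all genes.

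RUNX1(41-214) and Runx1KO were compared with the same 3 control arrays, so the position of a gene in one comparison is not independent of the other. Side by side, 24 factors lay below control in both groups, 11 in Runx1KO alone, 2 (Wdr12 and Tsr1) in RUNX1(41-214) alone, and Imp3, Ddx21, Nip7 and Brix1 above in both. Relative to Runx1KO, 12 of 41 (29.3%) had a mean below 0 in RUNX1(41-214) cells, against 46.9% of all genes, and 29 above, with a median of 0.06 (0.02 over all genes). Without both arrays of high Gapdh ratio 15 of 41 had a mean below 0 relative to Runx1KO (median 0.04). With each array shifted to a common median in place of quantile normalization, the median fold change of all genes in RUNX1(41-214) against control was 0.12 and that of the factors 0.09, with 16 of 41 below 0, so that this median changed sign. In that setting the factors stood at -0.10 in Runx1KO against control, with 30 of 41 below 0, where all genes were at 0.01, and at 0.19 in RUNX1(41-214) against Runx1KO, where all genes were at 0.11. Neither of these medians changed sign.

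**Figure D2:**
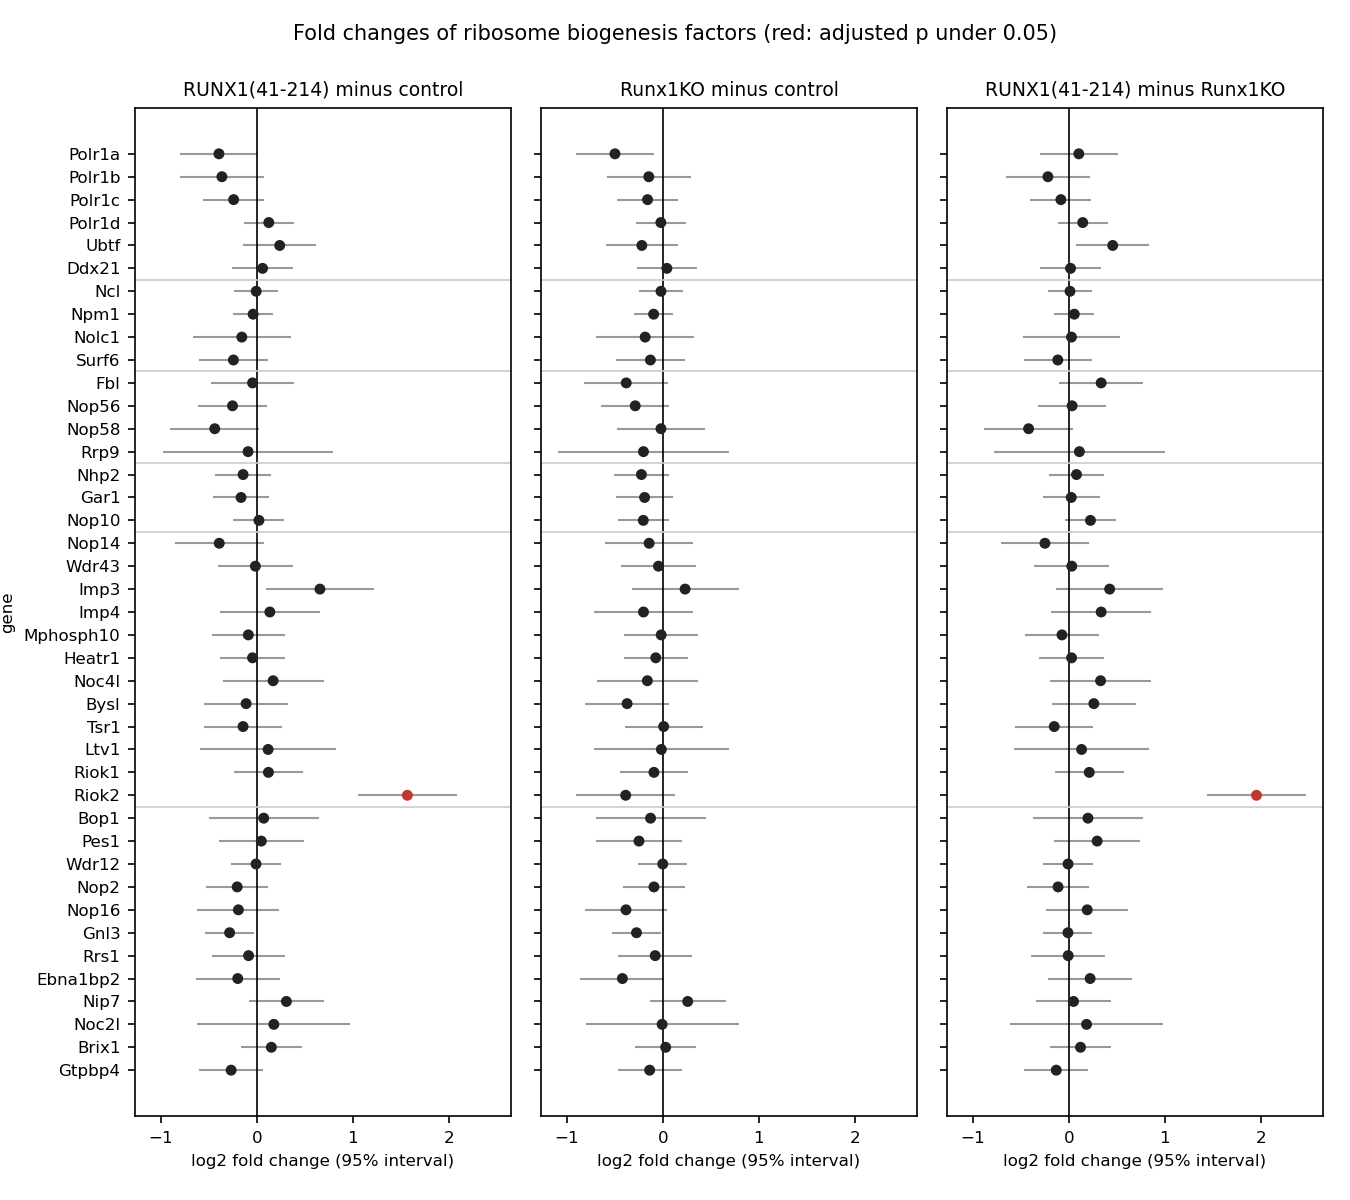
Log2 fold changes of the 41 factors with 95% intervals, for RUNX1(41-214) minus control, Runx1KO minus control and RUNX1(41-214) minus Runx1KO, in the same order of roles. Riok2 is the one gene past the threshold (red), in both comparisons of RUNX1(41-214), and the Runx1KO points lie mostly left of 0, with intervals that include 0 except for Polr1a and Gnl3.

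The RIO kinases gave the one clear difference. Riok2, an atypical kinase that binds late 40S precursors and is needed for their last maturation steps, has in human blood progenitors also been described as a regulator of transcription. It was at 10.21, 10.05 and 9.89 on the RUNX1(41-214) arrays, at 8.28, 7.64 and 8.38 on the Runx1KO arrays and at 8.26, 8.43 and 8.76 on the control arrays. All 3 RUNX1(41-214) values lay above the other 6, and the Runx1KO and control values overlapped. Riok2 rose by 1.57 ± 0.24 (SE) against control (limma adjusted p = 0.00279, 95% interval 1.05 to 2.09), a fold of 2.97 on this scale, and it ranked 76 among the rises of all genes. Against Runx1KO it rose by 1.96 ± 0.24 (adjusted p = 0.00223), and ranked 10. Its Runx1KO mean was -0.39 ± 0.24 from control (adjusted p = 0.828). In the 19 other settings tried it stayed called in RUNX1(41-214) against control, with fold changes from 1.01 to 1.71 and adjusted p from 0.000984 to 0.0207.

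A dimmer probe set of Riok2 did not show a difference of this size. It was at 8.15, 8.24 and 8.54 in RUNX1(41-214), at 8.15, 7.78 and 7.81 in Runx1KO and at 8.06, 8.24 and 7.27 in control cells. The RUNX1(41-214) and control arrays overlapped, and the fold change against control was 0.45 ± 0.27 (limma over all probe sets, adjusted p = 0.527). Against Runx1KO it was 0.40 ± 0.27 (adjusted p = 0.713). There the lowest RUNX1(41-214) array (8.1527) lay just above the highest Runx1KO array (8.1517). Which transcripts each probe set reads is not known here. The mean of both probe sets, at 1.01, still passed (adjusted p = 0.00832). Riok1, the other RIO kinase listed, which also acts on 40S precursors, averaged 9.68 ± 0.07 in RUNX1(41-214), 9.46 ± 0.19 in Runx1KO and 9.55 ± 0.09 in control cells (SD, n = 3 each). Its RUNX1(41-214) arrays lay just above the control arrays, and the difference of 0.12 ± 0.16 did not pass (adjusted p = 0.806).

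**Figure D3:**
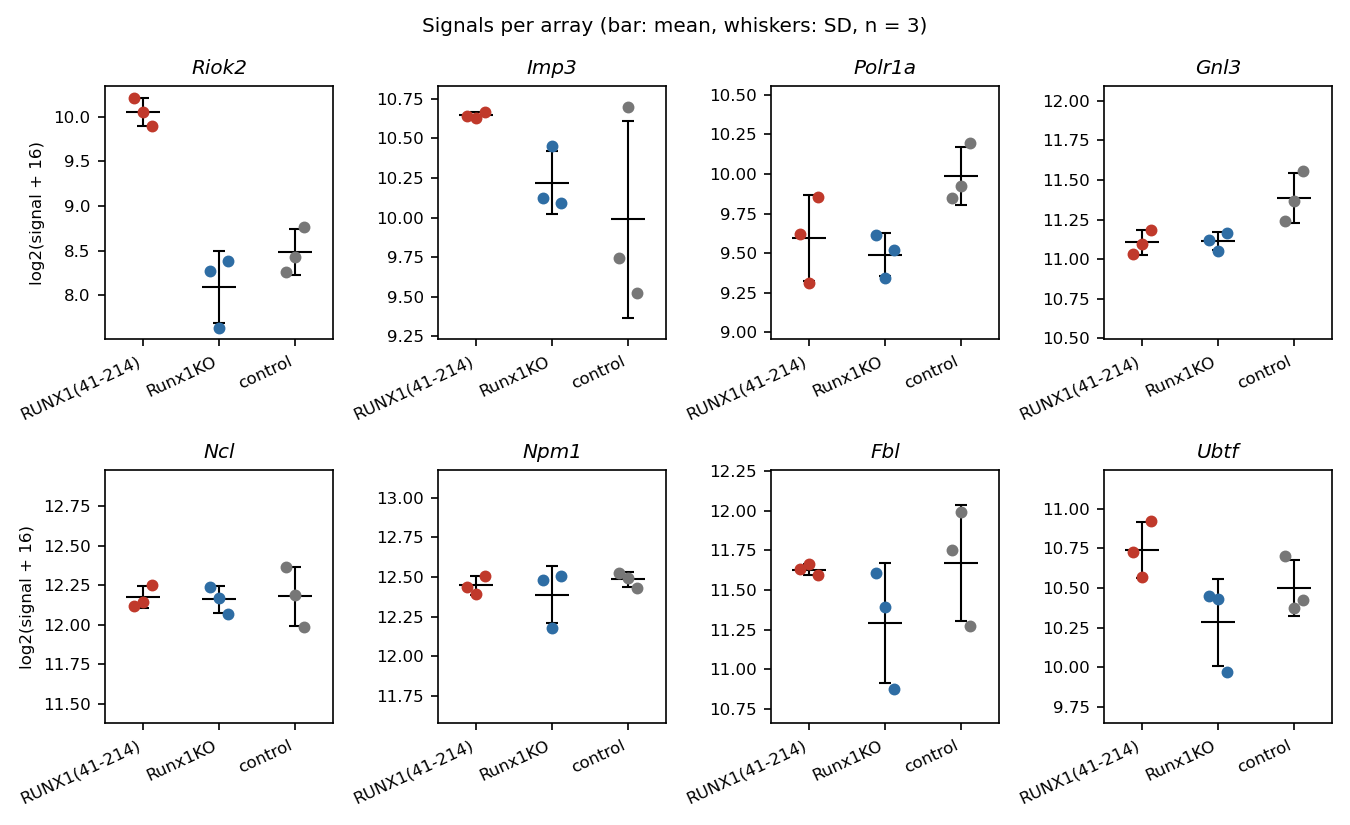
Log2(signal + 16) on each array for 8 factors, with RUNX1(41-214) (red), Runx1KO (blue) and control (grey) from left to right, and bars for the mean and SD of 3 arrays. Riok2 separates the RUNX1(41-214) arrays from the rest, Polr1a and Gnl3 have lower means in both other groups than in control, and Imp3 has a wide spread among control arrays.

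Among the other small subunit genes, Imp3 and Imp4, which with Mphosph10 form a complex that pairs the U3 RNA with the precursor, were measured together. Imp3 was at 10.64, 10.63 and 10.67 in RUNX1(41-214), at 10.12, 10.45 and 10.09 in Runx1KO and at 9.75, 10.70 and 9.52 in control cells. Control replicate 2 alone reached the RUNX1(41-214) level. The difference from control was 0.66 ± 0.26 and did not pass (limma adjusted p = 0.224), but without control replicate 2 it was 1.01 and passed (adjusted p = 0.00548), as it did at 0.78 with array weights (adjusted p = 0.0457). Imp4 averaged 9.76 ± 0.07 in RUNX1(41-214), 9.42 ± 0.40 in Runx1KO and 9.62 ± 0.37 in control cells on its brighter probe set (0.14 ± 0.24 against control, adjusted p = 0.858). Mphosph10 was at -0.09 ± 0.17 against control.

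The dim probe set of Imp4 differed between groups where the bright one did not pass. It was at 7.29, 7.23 and 7.31 in RUNX1(41-214), at 5.77, 6.19 and 5.61 in Runx1KO and at 6.50, 6.42 and 5.79 in control cells. The RUNX1(41-214) arrays lay above all others, by 1.04 ± 0.24 against control (limma over all probe sets, adjusted p = 0.0426) and by 1.42 ± 0.24 against Runx1KO (adjusted p = 0.0185). This probe set lay below the median level of all genes (7.95).

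The remaining small subunit factors stayed close to control. In this role 10 of 12 measured genes lay below control in Runx1KO (median -0.08) and 6 of 12 in RUNX1(41-214) (median 0.05). The counts were 8 and 6 of 12 without both arrays of high Gapdh ratio. Nop14, a processome scaffold that binds the product of Noc4l, was at 8.40, 8.21 and 8.48 in RUNX1(41-214), at 8.44, 8.40 and 8.99 in Runx1KO and at 8.86, 8.67 and 8.73 in control cells. Its RUNX1(41-214) arrays lay below the control arrays, with a difference of -0.39 ± 0.21 (adjusted p = 0.429). Bysl, a 40S export and maturation factor, was at -0.37 ± 0.20 in Runx1KO (adjusted p = 0.782) and at -0.11 ± 0.20 in RUNX1(41-214). Heatr1 and Wdr43, early processome components, were at -0.04 ± 0.15 and -0.01 ± 0.18 in RUNX1(41-214) and at -0.07 ± 0.15 and -0.04 ± 0.18 in Runx1KO. Ltv1, which is released from the late 40S precursor, was at 8.75, 8.96 and 8.72 in RUNX1(41-214), at 9.08, 8.57 and 8.38 in Runx1KO and at 8.59, 9.45 and 8.03 in control cells, where the control arrays alone spanned the whole range.

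For RNA polymerase I, 5 of 6 genes of transcription lay below control in Runx1KO and 3 of 6 in RUNX1(41-214), as they did without both arrays of high Gapdh ratio. Polr1a, its largest subunit, was at 9.62, 9.31 and 9.85 in RUNX1(41-214), at 9.61, 9.34 and 9.52 in Runx1KO and at 9.85, 9.92 and 10.20 in control cells. The Runx1KO arrays lay below all control arrays, and the difference of -0.50 ± 0.19 had the smallest p of the 41 factors in that comparison, without passing (limma adjusted p = 0.495). It was -0.55 without both arrays of high Gapdh ratio. In RUNX1(41-214) it was -0.39 ± 0.19 (adjusted p = 0.347). A dimmer probe set of Polr1a was at -0.78 ± 0.29 in Runx1KO and -0.93 ± 0.29 in RUNX1(41-214) (adjusted p = 0.596 and 0.142), while the dimmest was at 0.24 and 0.43.

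The other polymerase subunits differed little. Polr1b, the second-largest subunit, was at -0.15 ± 0.20 in Runx1KO and -0.36 ± 0.20 in RUNX1(41-214), and Polr1c, which RNA polymerase III shares, at -0.16 ± 0.14 and -0.24 ± 0.14. In both genes the RUNX1(41-214) arrays lay below all control arrays, and neither passed (adjusted p = 0.44 and 0.488). Ubtf, which opens the ribosomal DNA for transcription, was at 10.73, 10.57 and 10.92 in RUNX1(41-214), at 10.45, 10.43 and 9.97 in Runx1KO and at 10.70, 10.38 and 10.42 in control cells. RUNX1(41-214) was above Runx1KO on every array, by 0.46 ± 0.17 (adjusted p = 0.343), and by 0.30 without both arrays of high Gapdh ratio. A dimmer Ubtf probe set was far more variable, from 5.43 to 9.003 in RUNX1(41-214), from 6.78 to 8.45 in Runx1KO and from 7.86 to 10.08 in control cells, and at -2.29 ± 0.88 against control it did not pass (adjusted p = 0.246). With the mean of its probe sets Ubtf was at -1.02 in RUNX1(41-214) against control, the opposite sign from its brighter set. Ddx21, a helicase that couples polymerase I and II transcription with processing, was at 0.06 ± 0.14 in RUNX1(41-214) and 0.04 ± 0.14 in Runx1KO.

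The nucleolar proteins Ncl and Npm1 stayed close to control on their brightest probe sets. Ncl, nucleolin, was at 12.12, 12.14 and 12.25 in RUNX1(41-214), at 12.24, 12.17 and 12.07 in Runx1KO and at 12.36, 12.18 and 11.99 in control cells. Npm1, the histone chaperone nucleophosmin, was at 12.44, 12.39 and 12.51 in RUNX1(41-214), at 12.48, 12.18 and 12.50 in Runx1KO and at 12.52, 12.49 and 12.43 in control cells. On these probe sets all 3 groups overlapped in both genes. The 95% interval of the Ncl difference was -0.23 to 0.22 in RUNX1(41-214) and -0.25 to 0.21 in Runx1KO, and that of Npm1 was -0.24 to 0.17 and -0.30 to 0.11. The 3 other Ncl probe sets were at -0.28, -0.53 and -0.29 in RUNX1(41-214) and at -0.15, -0.35 and -0.40 in Runx1KO, and did not pass. On the first of them the RUNX1(41-214) arrays (12.04, 12.08 and 11.86) lay below all control arrays (12.35, 12.24 and 12.24). On the next the Runx1KO arrays (10.52, 10.32 and 10.51) lay below all control arrays (10.72, 10.81 and 10.88). Nolc1, a chaperone of snoRNPs, and Surf6, a nucleolar matrix protein, were at -0.16 ± 0.23 and -0.24 ± 0.16 in RUNX1(41-214) and at -0.18 ± 0.23 and -0.13 ± 0.16 in Runx1KO.

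With all arrays the snoRNP proteins had means below control in Runx1KO, 4 of 4 of box C/D (median -0.24) and 3 of 3 of box H/ACA (median -0.20), and none passed. Without both arrays of high Gapdh ratio 2 of 4 of box C/D (median 0.12) and 3 of 3 of box H/ACA (median -0.08) lay below. In RUNX1(41-214) against control 4 of 4 of box C/D (median -0.17) and 2 of 3 of box H/ACA (median -0.14) lay below with all arrays. Without both these were 2 of 4 (median -0.02) and 2 of 3 (median -0.105). Fbl, fibrillarin, the methyltransferase of box C/D snoRNPs, was at 11.63, 11.66 and 11.59 in RUNX1(41-214), at 11.61, 11.39 and 10.88 in Runx1KO and at 11.75, 11.99 and 11.27 in control cells. The Runx1KO and control arrays overlapped, with the lowest value on Runx1KO replicate 3 and the highest on control replicate 2, and the difference was -0.38 ± 0.20 (adjusted p = 0.762), or -0.01 without both of these arrays. The core proteins Nop56 and Nop58 were at 0.03 ± 0.16 and -0.42 ± 0.21 in RUNX1(41-214) against Runx1KO (adjusted p = 0.974 and 0.537). Against control they were at -0.25 ± 0.16 and -0.44 ± 0.21 in RUNX1(41-214) (limma adjusted p = 0.525 and 0.36), Nop58 being the lowest of the 41 there. Nop58 was at 10.54, 10.76 and 11.10 in RUNX1(41-214), at 11.49, 11.11 and 11.06 in Runx1KO and at 11.30, 11.60 and 10.81 in control cells, with overlap between all groups. Its difference from control in Runx1KO was -0.02 with all arrays and 0.25 without both. Nop10, a box H/ACA protein, was at 12.03, 12.13 and 12.04 in RUNX1(41-214), at 12.02, 11.96 and 11.55 in Runx1KO and at 11.94, 12.10 and 12.09 in control cells. RUNX1(41-214) lay just above Runx1KO on every array (0.23 ± 0.12, adjusted p = 0.579), and by 0.08 on average without both. Gar1 and Nhp2, also of box H/ACA, were at -0.16 ± 0.13 and -0.14 ± 0.13 in RUNX1(41-214) and at -0.19 ± 0.13 and -0.22 ± 0.13 in Runx1KO.

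Of the 60S assembly genes, 9 of 12 lay below control in Runx1KO (median -0.11) and 7 of 12 in RUNX1(41-214) (median -0.05). Without both arrays of high Gapdh ratio 6 of 12 lay below control in each. Gnl3, nucleostemin, a nucleolar GTPase first described in stem cells, was at 11.03, 11.10 and 11.19 in RUNX1(41-214), at 11.12, 11.05 and 11.17 in Runx1KO and at 11.24, 11.36 and 11.56 in control cells. All 6 arrays of the altered groups lay below the 3 control arrays. The differences were -0.28 ± 0.12 in RUNX1(41-214) and -0.27 ± 0.12 in Runx1KO, and neither passed (limma adjusted p = 0.259 and 0.646). Ebna1bp2, an early 60S factor, was at 9.77, 9.77 and 10.15 in RUNX1(41-214), at 9.79, 9.77 and 9.46 in Runx1KO and at 9.90, 10.46 and 9.92 in control cells. Nop16 was at 9.48, 9.49 and 10.03 in RUNX1(41-214), at 9.73, 9.28 and 9.42 in Runx1KO and at 9.89, 9.87 and 9.82 in control cells. In both genes the Runx1KO arrays lay below the control arrays, by -0.42 ± 0.20 for Ebna1bp2 and -0.38 ± 0.20 for Nop16 (adjusted p = 0.71 and 0.754). Ebna1bp2 was at -0.24 without control replicate 2, at -0.13 without both arrays of high Gapdh ratio and at -0.13 with the mean of its probe sets. Nop16 was at -0.36 and Gnl3 at -0.31 in Runx1KO without both.

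Pes1, Bop1 and Wdr12 form 1 complex that cleaves the spacer before the large subunit RNA. Pes1 was at 0.05 ± 0.20 in RUNX1(41-214) and -0.25 ± 0.20 in Runx1KO, Bop1 at 0.07 ± 0.26 and -0.13 ± 0.26, and Wdr12 at -0.01 ± 0.12 and 0.00 ± 0.12. None of the 3 passed, and their 95% intervals lay between -1 and 1. Nip7, which joins 60S precursors, was with all arrays the factor highest above control in Runx1KO, at 0.26 ± 0.18 (adjusted p = 0.849). In RUNX1(41-214) it was at 0.31 ± 0.18. Its dimmer probe set was at -0.28 ± 0.25 in Runx1KO and 0.32 ± 0.25 in RUNX1(41-214), and did not pass. Without both arrays of high Gapdh ratio Noc2l (0.717), Imp3 (0.655), Rrp9 (0.606), Ltv1 (0.518) and Bop1 (0.371) stood higher in Runx1KO than Nip7 (0.314). The GTPase Gtpbp4 was at 10.78, 10.85 and 10.79 in RUNX1(41-214), below all Runx1KO arrays (10.90, 10.86 and 11.05), while the control arrays at 11.32, 10.73 and 11.17 overlapped both. Noc2l, whose yeast relative moves 60S precursors out of the nucleolus, was at 8.86, 8.77 and 8.95 in RUNX1(41-214), at 8.80, 9.05 and 8.19 in Runx1KO and at 8.37, 9.64 and 8.04 in control cells. Here control replicate 2 was the highest array and control replicate 3 the lowest. Spread within a group was smallest in RUNX1(41-214), with a median SD of 0.14 over the 41 factors, against 0.21 in Runx1KO and 0.23 in control cells. The genes at least as bright as the dimmest factor had median SDs of 0.13, 0.21 and 0.25 in the same groups.

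More than 1 probe set was available for 27 of the 41 factors, with 34 dimmer sets in all. In Runx1KO 26 of the 34 lay below control (median -0.30) and 22 had the sign of the brighter set. In RUNX1(41-214) 23 of 34 lay below control (median -0.11) and 24 had the sign of the brighter set. Fitted among all 22626 probe sets, 0 of the 34 were called in Runx1KO against control (0.137% of all probe sets were). The dim set of Imp4 was the 1 called in RUNX1(41-214), against control (3.05% of all) and against Runx1KO (1.08% of all).

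**Figure D4:**
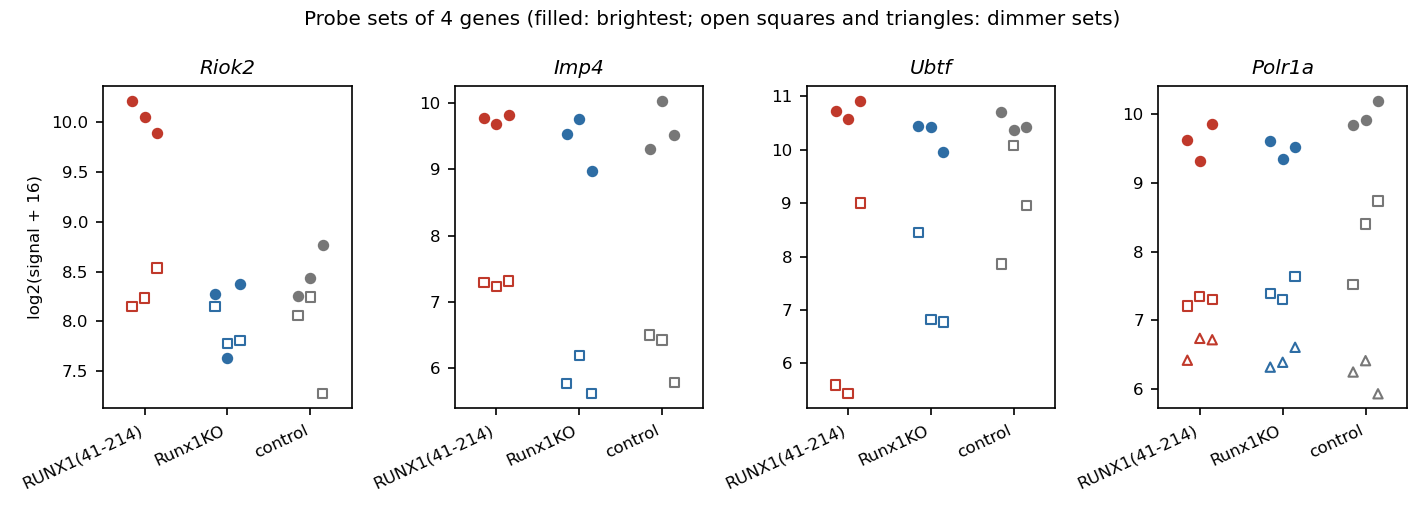
Log2(signal + 16) of every probe set of Riok2, Imp4, Ubtf and Polr1a on each array, with RUNX1(41-214) (red), Runx1KO (blue) and control (grey) from left to right. Filled circles are the brightest probe set, and for Riok2 and Imp4 the rise in RUNX1(41-214) is seen in 1 of the 2 probe sets, the bright one of Riok2 and the dim one of Imp4.

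Other genes of the pathway, which are not among the 41, also lay mostly below control in Runx1KO when all arrays were used, and none passed. Below control were 32 of 40 further large subunit factors (median -0.15), 29 of 39 small subunit factors (-0.06), 15 of 18 genes of the exosome and RNase MRP (-0.21) and 9 of 12 of the polymerase I machinery (-0.14). The cytosolic ribosomal protein genes stood at 20 of 43 below control (median 0.01). Without both arrays of high Gapdh ratio the counts below control were 26 of 40, 24 of 39, 9 of 18, 6 of 12 and 20 of 43, in the same order. The smallest p in these lists belonged to Ddx27 (-0.41 ± 0.18, adjusted p = 0.671), Rrp12 (-0.48 ± 0.23), Rpp40 (-0.37 ± 0.21), Polr2f (-0.30 ± 0.17) and Rps26 (0.14 ± 0.09). In RUNX1(41-214) the corresponding counts below control were 29 of 40, 22 of 39, 11 of 18, 4 of 12 and 11 of 43. There 1 gene of these lists fell, Ttf1, which terminates polymerase I transcription. It was at 8.37, 8.22 and 8.96 in RUNX1(41-214), at 9.04, 9.70 and 9.24 in Runx1KO and at 9.32, 9.65 and 9.53 in control cells, a difference from control of -0.98 ± 0.24 (limma adjusted p = 0.0442). Its RUNX1(41-214) arrays lay below the other 6. When single arrays were left out Ttf1 passed only without RUNX1(41-214) replicate 3 or Runx1KO replicate 2 (adjusted p = 0.0233 to 0.202 over the 9 omissions). It was at -0.91 without both arrays of high Gapdh ratio (adjusted p = 0.0918). In that setting 5 of 43 ribosomal protein genes passed in RUNX1(41-214) against control, all higher (Rpl19, Rpl27, Rpl35, Rps10 and Fau). Polr2e (0.705, limma adjusted p = 0.0475) and Trmt112 (0.334, adjusted p = 0.0471) of these lists passed there as well. Of all 12393 genes 339 were then called higher and 428 lower. None of these 3 kinds of gene passed with all arrays.

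Of the Myc network, which drives many nucleolar genes, 2 of 12 rose in RUNX1(41-214) against control. Myc was at 11.26, 11.16 and 11.08 in RUNX1(41-214), at 10.92, 10.72 and 10.74 in Runx1KO and at 10.56, 10.58 and 9.87 in control cells. Its RUNX1(41-214) arrays lay above all others, by 0.83 ± 0.18 against control (limma adjusted p = 0.0249) and by 0.37 ± 0.18 against Runx1KO (adjusted p = 0.524). Mlxip, a glucose-sensing relative of Myc's partners, rose by 0.73 ± 0.17 against control (adjusted p = 0.0348). Myc did not pass without any one of the RUNX1(41-214) arrays (adjusted p = 0.0593 to 0.122) and passed without any one of the other 6, and Mlxip passed only without Runx1KO replicate 2 or 3 or control replicate 1 (0.0292 to 0.125 over the 9). Myc was at 0.95 (adjusted p = 0.0205) and Mlxip at 0.64 (adjusted p = 0.0605) without both arrays of high Gapdh ratio. In Runx1KO Myc was at 0.45 ± 0.18 (adjusted p = 0.585), and 0 of 12 were called, Mxi1, a Myc antagonist, having the smallest p (0.58 ± 0.16, adjusted p = 0.239). RNA polymerase III genes had 0 of 15 called in any comparison, Polr3f having the smallest p in RUNX1(41-214) against control (0.57 ± 0.28, adjusted p = 0.377).

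**Figure D5:**
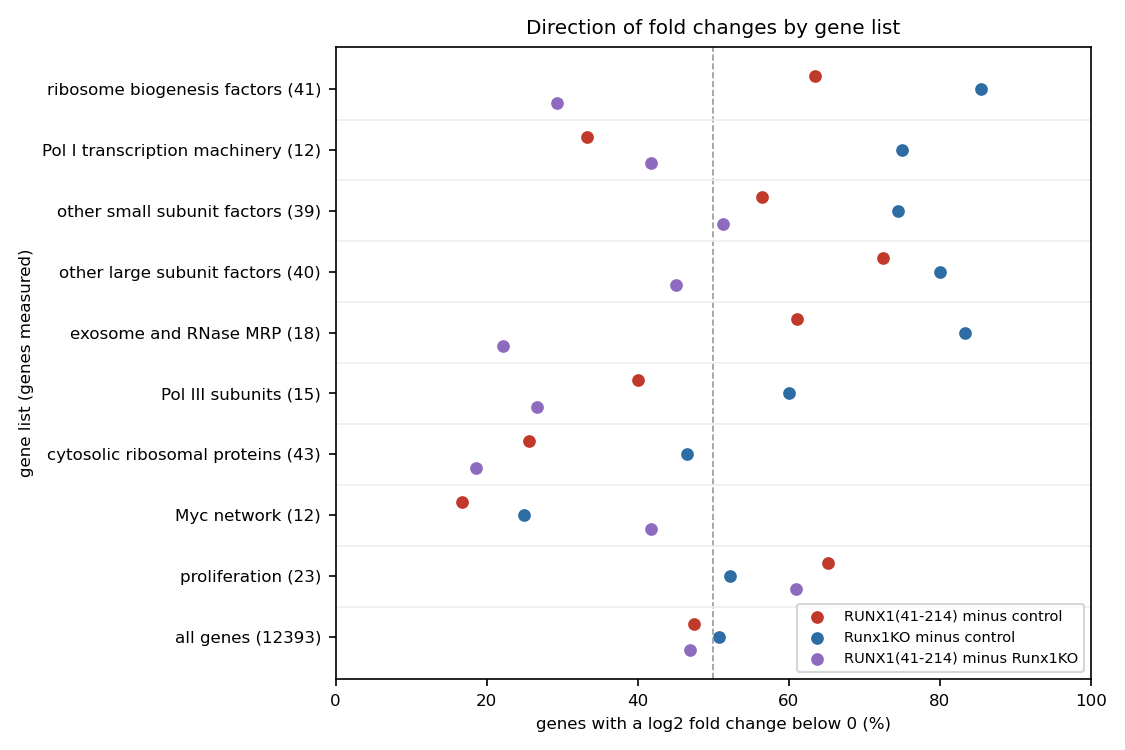
Share of genes with a log2 fold change below 0 in each list (genes measured in brackets), for RUNX1(41-214) minus control (red), Runx1KO minus control (blue) and RUNX1(41-214) minus Runx1KO (purple), with all genes in the lowest row and a dashed line at 50%. In Runx1KO the biogenesis factors stand at 85.4% and the ribosomal proteins at 46.5%, and all genes at 50.8%, with all arrays used.

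Markers of dividing cells and of other cell types were measured on the same arrays. Of 23 proliferation genes 0 were called in any comparison, and their summed signal ran from 35420 to 48520 in RUNX1(41-214), from 35940 to 47170 in Runx1KO and from 37040 to 49070 in control cells. The stem cell receptor Kit, which sorts these cells, was at 11.72 ± 0.18 in RUNX1(41-214), 11.64 ± 0.20 in Runx1KO and 11.15 ± 0.15 in control cells (SD, n = 3 each), higher in RUNX1(41-214) than in control (limma adjusted p = 0.0415, and 0.0319 to 0.187 with single arrays left out), and Cd34 lay between 11.78 and 12.01 in the group means. The summed signal of 8 megakaryocyte and platelet genes was 9389 to 12010 in RUNX1(41-214), 6715 to 7758 in Runx1KO and 3291 to 4704 in control cells, and 3 of the 8 were called in each against control. That of 5 mast cell and basophil genes was 5010 to 5967 in RUNX1(41-214), 2439 to 4149 in Runx1KO and 385.4 to 1220 in control cells. For 6 T and NK cell genes it was 239.7 to 384.7 in RUNX1(41-214), 443.3 to 1013 in Runx1KO and 1065 to 1385 in control cells. In control cells Nkg7 averaged 10.04 and the other genes of this list 6.68 or less, so that the sum rests mostly on Nkg7. Summed signals of 9 granulocyte, 6 monocyte, 6 B cell and 5 erythroid genes overlapped between control cells and both other groups.

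Single markers moved in the same comparison as Riok2. The red cell genes Alas2, which starts heme synthesis, and Slc4a1, the anion exchanger band 3, rose in RUNX1(41-214). Alas2 averaged 7.26 in RUNX1(41-214), 4.93 in Runx1KO and 5.06 in control cells (2.20 against control, limma adjusted p = 0.0102), and Slc4a1 averaged 8.23, 5.37 and 5.32 in the same groups (2.91, adjusted p = 0.0109). Both also rose against Runx1KO (adjusted p = 0.0176 and 0.0267). The other 3 erythroid genes were not called. In RUNX1(41-214) Klf1 (-0.82) and Epor (-0.22) lay below control, and Hba-a1 (0.05) lay just above. With single arrays left out neither Alas2 nor Slc4a1 always passed against control (adjusted p = 0.000885 to 0.0543 for Alas2 and 0.00466 to 0.0583 for Slc4a1). Nor did they always pass against Runx1KO (0.00135 to 0.0897 and 0.0134 to 0.131). Without both arrays of high Gapdh ratio they passed against control (0.0417 and 0.0217) and not against Runx1KO (0.0762 and 0.0904). Of the mast cell and basophil genes Cpa3, Ms4a2 and Hdc rose in RUNX1(41-214) against control and Cpa3 in Runx1KO. Cpa3, the brightest of that list, averaged 12.20 in RUNX1(41-214), 11.46 in Runx1KO and 8.43 in control cells. Fcer1a and Mcpt8 of the same list lay below control in RUNX1(41-214) (-1.29 and -0.56, limma adjusted p = 0.257 and 0.699). In Runx1KO they were at -0.88 and -0.87, and neither passed. Of the T and NK cell genes Nkg7 and Gzma, of cytotoxic granules, fell in RUNX1(41-214). Their means were 7.60 and 5.68, against 10.04 and 6.68 in control cells (limma adjusted p = 0.00158 and 0.0278). With single arrays left out Nkg7 always passed (adjusted p = 0.000549 to 0.0125) and Gzma did not always pass (0.0207 to 0.126). Cd8a and Cd3g lay above control (0.66 and 0.50) and Cd3e and Cd4 below (-0.35 and -0.03), and none of these passed. Of the B cell genes Vpreb1, of the surrogate light chain, fell to 5.79 in RUNX1(41-214), against 7.33 in control cells (adjusted p = 0.0495). With single arrays left out Vpreb1 did not always pass (limma adjusted p = 0.0135 to 0.2), and it passed without both arrays of high Gapdh ratio (0.00492). Of the other B cell genes Igll1, Pax5 and Cd79b lay above control in RUNX1(41-214) (0.54, 0.38 and 0.08). Ebf1 and Cd79a lay below (-1.45 and -0.55), and none of these passed. Group means of the B cell genes Cd79b and Igll1 lay between 7.35 and 9.28, and those of Pax5, Cd3e and Cd4 at 4.82 or less, near the floor of the scale. None of the granulocyte and monocyte genes was called in any comparison. The part of these lists in the differences above, that of Riok2 included, was not tested.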

How the data were processed

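Per the labels, total RNA was isolated on Qiagen columns and labelled with biotin by the two-cycle Affymetrix procedure, which amplifies the material. Signals of different genes on these arrays cannot be compared as amounts of RNA. The deposited values are linear intensities, 1 for each probe set and array, from 0.53 to 20215. How the authors summarised and scaled these intensities was not stated in the labels or headers. After removal of 64 control probe sets 22626 remained, of which 20380 carried 1 gene symbol in the platform's annotation, 691 several and 1555 none. Signals were converted to log2(signal + 16), which understates the folds of dim genes, and quantile normalized. The brightest probe set, by mean over the arrays, stood for a gene, and no filter on low signals was used.

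All 9 arrays entered 1 fit with a mean for each group (limma 3.58.1, R 4.3.3, lmFit and eBayes with a variance trend, 6 residual and 5.6 prior degrees of freedom), and p-values were adjusted over 12393 genes by the Benjamini-Hochberg method, two-sided, with a threshold of 0.05. The number of arrays limits precision: the median standard error of a fold change was 0.20. The fitting script was tested on simulated data. The p-values measure the spread between arrays. The labels call the replicates biological but do not say whether a replicate was 1 mouse or a pool.

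The genes, lists and the rule for those described were chosen with earlier results of these data known. Values on each array are given for Ncl, Npm1 and Fbl, for the factors past the threshold or the 4 with the smallest p per contrast, for the 2 brightest and 2 dimmest, and for Runx1 and Myc. Noc2l, Gtpbp4 and the dimmer probe sets of Riok2, Imp4, Ubtf, Polr1a, Ncl, Nip7 and Runx1 and single marker genes were named after their values were seen. Whether replicate numbers pair the samples is not known, and the main fit did not use them. Same-numbered arrays deviated together in some pairs of groups (correlation up to 0.418) and not in others (down to -0.174). Between Runx1KO and control the correlations were 0.0269, 0.409 and 0.418 for replicates 1, 2 and 3. Gene names and promoters are those of RefSeq, GRCm38.p6. Alternatives were other scalings, offsets, probe set rules, filters, weights, a replicate block, fits of 2 groups and leaving out arrays.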

Additional observations from a re-analysis of the deposited data

How the results depend on the processing

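Across 19 alternatives, 0 factors were called in Runx1KO against control, and Riok2 was called in both comparisons of RUNX1(41-214). Against control, Imp3 joined it with array weights, without control replicate 2, and without both arrays of high Gapdh ratio, an alternative added after seeing the data (1.01, adjusted p = 0.00512). The count was then 2 in place of 1. The F test also gave 2 without control replicate 2 and without both arrays. Leaving out single arrays gave counts of 1 to 2 for RUNX1(41-214) against control and 1 to 2 for the F test.

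With each array shifted to a common median, the factors' median became 0.0929 in RUNX1(41-214) against control and 0.188 against Runx1KO, where all genes were at 0.117 and 0.108. Leaving out single arrays gave medians of -0.144 to -0.0159 in RUNX1(41-214) against control, lowest without control replicate 3. The fit with the replicate block left the medians at -0.0438 in RUNX1(41-214) against control, -0.137 in Runx1KO against control and 0.0574 in RUNX1(41-214) against Runx1KO and changed no call (0, 1 and 1 factors called in Runx1KO against control, RUNX1(41-214) against control and RUNX1(41-214) against Runx1KO).

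Signs were compared for the factors with values given on each array by rule, and for all 41 only without both high-Gapdh arrays. None of the fold changes whose sign turned passed the test in either setting, and the cause was not tested. Without quantile normalization, the log2 fold changes that turned sign were in RUNX1(41-214) against control Ncl 0.0421 and Npm1 0.0252, and in Runx1KO against control Nop58 0.00458 and Ncl 0.0102. With the common median, the log2 fold changes that turned sign were in RUNX1(41-214) against control Ncl 0.173, Npm1 0.157 and Fbl 0.12, in Runx1KO against control Nop58 0.0224 and Ncl 0.0281, and in RUNX1(41-214) against Runx1KO Gnl3 0.0938. With the mean of probe sets, the log2 fold changes that turned sign were in RUNX1(41-214) against control Ubtf -1.02 and Npm1 0.0637, and in RUNX1(41-214) against Runx1KO Ubtf -0.108 and Ncl -0.046. With array weights, the log2 fold changes that turned sign were in RUNX1(41-214) against control Fbl 0.0422, in Runx1KO against control Nop58 0.169, Ncl 0.0316 and Ltv1 0.289, and in RUNX1(41-214) against Runx1KO Polr1a -0.00546, Nop16 -0.00218 and Ncl -0.0395. Without both high-Gapdh arrays, the log2 fold changes that turned sign in RUNX1(41-214) against control were Fbl 0.117, Rrp9 0.178, Nolc1 0.0473 and Wdr12 0.0357. In Runx1KO against control they were Nop58 0.248, Ncl 0.0306, Ltv1 0.518, Rrp9 0.606, Noc2l 0.717 and Bop1 0.371. Nolc1 0.253, Imp4 0.233, Noc4l 0.175, Pes1 0.0287 and Tsr1 -0.121 also turned in Runx1KO against control. In RUNX1(41-214) against Runx1KO they were Gnl3 0.0175, Ncl -0.0318, Ltv1 -0.0155, Rrp9 -0.428, Nolc1 -0.206 and Bop1 -0.0849. Noc2l -0.0594, Gar1 -0.0225, Polr1c 0.038, Wdr12 0.0271 and Mphosph10 0.00723 also turned against Runx1KO. In RUNX1(41-214) against control, single omissions that turned a sign gave ranges for Fbl of -0.243 to 0.118, Ltv1 of -0.211 to 0.5, Ncl of -0.103 to 0.0864 and Nop10 of -0.0281 to 0.0522. In Runx1KO against control, single omissions that turned a sign gave ranges for Imp3 of -0.00202 to 0.59, Ltv1 of -0.345 to 0.367, Ncl of -0.116 to 0.073, Nop58 of -0.237 to 0.166 and Npm1 of -0.152 to 0.0095. In RUNX1(41-214) against Runx1KO, single omissions that turned a sign gave ranges for Gnl3 of -0.0491 to 0.027, Ltv1 of -0.0156 to 0.334, Ncl of -0.0326 to 0.0529, Npm1 of -0.0469 to 0.115 and Polr1a of -0.0238 to 0.245.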

Other observations

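The probe set shared by Mrto4, a 60S assembly factor, and its pseudogenes was left out of the 41. It was at 9.33, 9.39 and 9.70 in RUNX1(41-214), at 9.22, 9.005 and 8.75 in Runx1KO and at 8.62, 9.97 and 9.16 in control cells. Control replicate 2 was again the highest array, and the differences from control were 0.22 ± 0.30 in RUNX1(41-214) and -0.26 ± 0.30 in Runx1KO (limma over all probe sets, adjusted p = 0.823 and 0.957). Of the 41, 9 were read by probe sets whose type (suffix s) can match transcripts of several genes, among them Fbl, Nop56, Gar1, Nhp2, Polr1c and Riok1.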
